A study of Homo sapiens with 12 samples.

Results

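The genes described here are the pluripotency factors SOX2, KLF4, POU5F1 and NANOG, the RNA-binding protein LIN28B, the progenitor factor SOX9, the surface markers CD44 and PROM1, and the aldehyde dehydrogenases ALDH1A1 and ALDH1A3. They were chosen by name, as rows of both deposited count tables, and are 10 of the 28008 genes in each table. RNA-seq was done on 2 established lines of human pancreatic neuroendocrine tumors, QGP-1 (grown in RPMI medium) and BON-1 (grown in DMEM/F-12). All cells, controls included, carried the tet-inducible MUC1shRNA, a hairpin that targets MUC1 mRNA and is expressed when doxycycline (DOX) is added, and each line was treated with vehicle (0.1% DMSO) or with 500 ng/mL DOX for 7 days. Each of the 4 groups (QGP-1 vehicle, QGP-1 DOX, BON-1 vehicle and BON-1 DOX) holds 3 libraries, 12 in all. The model has limits: 1 hairpin was sequenced, the transduced cells were selected with puromycin and are not stated to be clones, and no library has a control hairpin with DOX, so an effect of the hairpin and an effect of DOX itself cannot be told apart. The study describes the libraries of a group as biologic triplicates, and p-values measure the spread between them.

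SOX2, POU5F1 (OCT4), KLF4 and NANOG are the transcription factors best known for holding embryonic stem cells in the pluripotent state, and some of them return in tumors. LIN28B blocks the maturation of the let-7 microRNAs, which in turn act on the LIN28B transcript. SOX9 marks ductal and progenitor cells of the pancreas. CD44, a receptor for hyaluronan, and PROM1 (CD133), a pentaspan membrane protein, are used to sort cells that start tumors, and ALDH1A1 and ALDH1A3 oxidize retinaldehyde to retinoic acid and give much of the aldehyde dehydrogenase activity by which such cells are sorted.

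Total counts per library ranged from 38224144 to 50525926 in QGP-1 and from 15981954 to 28484324 in BON-1. Levels are given in CPM, read counts per 1000000 effective counts of the library after TMM scaling over all 12 libraries. MUC1, the target of the hairpin, had 274, 251 and 281 counts in QGP-1 vehicle and 34, 41 and 32 with DOX, a log2 fold change of -2.91 (SE 0.23, edgeR adjusted p = 8.24e-07). In BON-1 it had 580, 467 and 281 counts with vehicle and 23, 51 and 78 with DOX, a change of -2.79 (SE 0.22, edgeR adjusted p = 6.51e-11). Of 10 neuroendocrine markers, 10 were above 1 CPM in BON-1 and 9 in QGP-1, where NEUROD1 had no counts, and all 5 epithelial markers were above 1 CPM in both lines. The sum of the neuroendocrine markers was 5470 to 6180 CPM with vehicle and 6250 to 6720 CPM with DOX in QGP-1, and 11400 to 14900 CPM and 8940 to 9410 CPM in BON-1. The sum of the epithelial markers was 2090 to 2220 CPM and 2060 to 2070 CPM in QGP-1, and 2300 to 2710 CPM and 3050 to 3610 CPM in BON-1. Among the markers of other cell types, the sum of 5 immune genes was higher with DOX in both lines (10.8 to 13.2 CPM against 17.3 to 21.5 CPM in QGP-1, and 25.1 to 27.5 CPM against 51.2 to 55.4 CPM in BON-1), with CD3E at 0 in all libraries of 3 of the 4 groups. The sum of 6 fibroblast genes was 1.86 to 3.75 CPM with vehicle and 1.17 to 1.35 CPM with DOX in QGP-1, and 5.02 to 6.47 CPM and 10.4 to 11.1 CPM in BON-1. The sum of 4 acinar genes was lower with DOX (84.7 to 155 CPM against 29.6 to 41 CPM in QGP-1, and 34.6 to 44.6 CPM against 19.1 to 26.8 CPM in BON-1), and 4 endothelial genes summed to at most 1.64 CPM in QGP-1 and to 31.8 to 41 CPM in BON-1. These sums rest on few genes: in each group, 2 immune genes, 1 fibroblast gene and 1 acinar gene were above 1 CPM. Of the endothelial genes, 1 was above 1 CPM in BON-1 and 0 in QGP-1. The part of these markers in the results was not tested.

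Which of the 10 genes were expressed differed between the lines. POU5F1 and NANOG were below the filter on low counts in both lines, and LIN28B was below it in BON-1, which leaves 8 genes tested in QGP-1 and 7 in BON-1. POU5F1 (chr6:31164337-31180731) had 4 counts in 1 QGP-1 DOX library and 0 in the other 11 libraries. NANOG (chr12:7787794-7799146) had 2 and 4 counts in 2 BON-1 vehicle libraries and 0 in the other 10. For these genes, 3 counts in a library would be 0.0619 to 0.0807 CPM in QGP-1 vehicle and 0.105 to 0.16 CPM in BON-1 vehicle, so a level below that was not detectable at this depth. Both genes have pseudogenes in the annotation, 6 for POU5F1 and 9 for NANOG, so these few counts are uncertain as to their source.

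**Figure D1:**
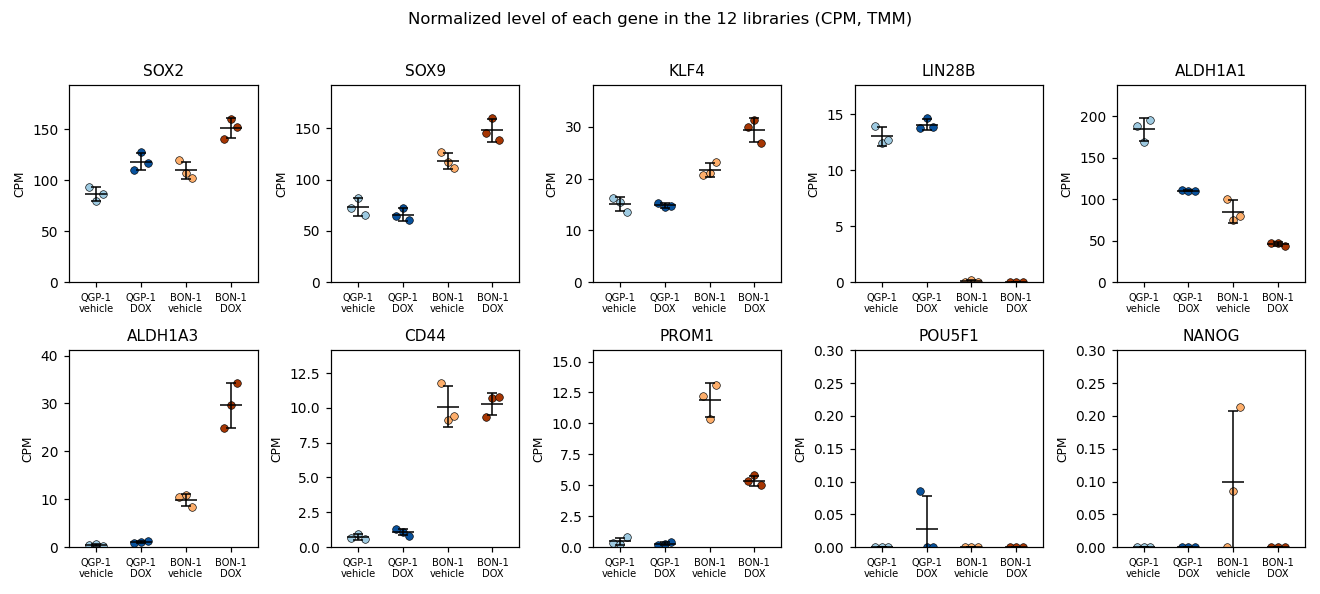
Normalized level in CPM (y axis, each panel with its own scale) of the 10 genes in the 12 libraries, 3 per group (x axis). Points are libraries, and the horizontal line and bars are the mean and SD. In both lines SOX2 and ALDH1A3 lie higher and ALDH1A1 lower with DOX, LIN28B holds at least 12.4 CPM in QGP-1 and is at or near 0 in BON-1, and POU5F1 and NANOG are at or near 0 throughout.

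Levels of different genes were compared per length, as CPM per kilobase of exon. In QGP-1 vehicle cells ALDH1A1 was the highest of the 10 at 64.9 ± 4.8 (SD, n = 3), followed by SOX2 at 34.5 ± 2.9, SOX9 at 18.6 ± 2.2, KLF4 at 4.13 ± 0.37 and LIN28B at 2.19 ± 0.14. ALDH1A3 at 0.0781 ± 0.034, CD44 at 0.0732 ± 0.021 and PROM1 at 0.0622 ± 0.037 came next, with library values that overlapped, and POU5F1 and NANOG had no counts. In BON-1 vehicle cells SOX2 came first at 43.6 ± 3.5. SOX9 at 30.1 ± 2.0 and ALDH1A1 at 29.9 ± 4.8 did not differ beyond their spread. KLF4 followed at 5.91 ± 0.37, then ALDH1A3 at 1.85 ± 0.25 and PROM1 at 1.59 ± 0.18, whose values overlapped, and CD44 at 1.01 ± 0.15. With DOX, SOX2 came first in both lines: in QGP-1 it was at 47.0 ± 3.4 against 38.8 ± 0.17 for ALDH1A1, and in BON-1 at 60.1 ± 4.0 against 37.6 ± 2.8 for SOX9 and 16.2 ± 0.81 for ALDH1A1.

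**Figure D2:**
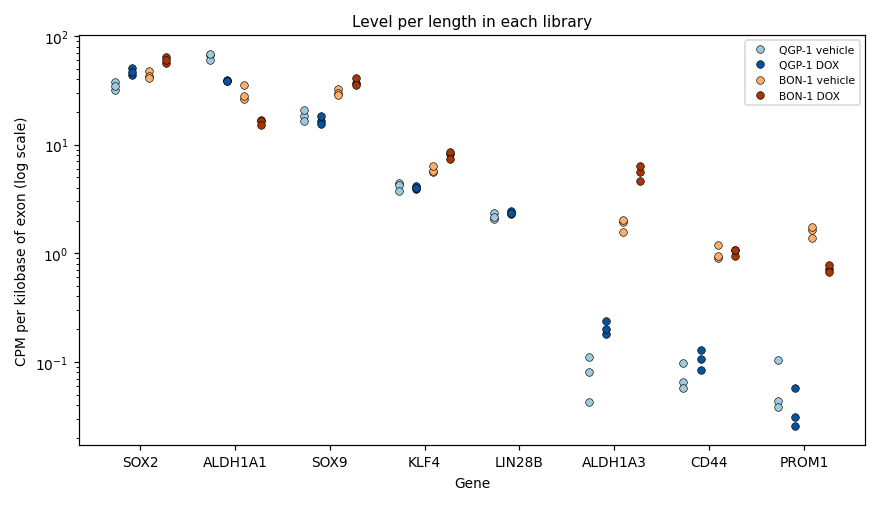
Level per length of 8 of the genes (x axis) in each library, in CPM per kilobase of exon (y axis, log scale), with colors for the 4 groups. LIN28B is drawn for QGP-1 only, since 5 of the 6 BON-1 libraries hold no count. ALDH1A3, CD44 and PROM1 lie well below the other genes in QGP-1, and ALDH1A3 lies between KLF4 and CD44 in BON-1 with DOX.

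The vehicle groups were compared to ask how the lines differ before the hairpin is induced. All 8 genes tested differed in the fit of the 12 libraries, 6 higher in BON-1 and 2 higher in QGP-1, and here 74.9% of all 16598 genes tested were called, 37.5% in each direction, and 77.6% had groups without overlap. Line, medium and count table cannot be told apart in this comparison. LIN28B, whose counts are given with the let-7 axis, had the widest difference. The next widest were PROM1, ALDH1A3 and CD44, which had few counts in QGP-1. PROM1 had 12, 12 and 38 counts in QGP-1 vehicle (0.464 ± 0.28 CPM) and 350, 241 and 245 in BON-1 vehicle (11.9 ± 1.4 CPM), 24.7-fold higher in BON-1 (log2 4.63, edgeR adjusted p = 6.81e-13). ALDH1A3 was 24.0-fold higher in BON-1 (log2 4.59, edgeR adjusted p = 8.45e-15) and CD44 13.8-fold higher (log2 3.79, edgeR adjusted p = 2.84e-13), with no overlap between the groups. The transcription factors differed less: SOX9 was 1.62-fold (edgeR adjusted p = 2.33e-07), KLF4 1.43-fold (edgeR adjusted p = 0.000184) and SOX2 1.27-fold (edgeR adjusted p = 0.000835) higher in BON-1. ALDH1A1 went the other way and was 2.17-fold higher in QGP-1 (log2 -1.12 for BON-1 against QGP-1, edgeR adjusted p = 5.86e-11).

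The comparison of DOX with vehicle asks what happened to these genes when MUC1 was silenced. In QGP-1, 2 of the 8 genes tested rose (SOX2 and ALDH1A3), 1 fell (ALDH1A1) and 5 were not called. The share called, 37.5%, was near that of all 15089 genes tested (35.0%, with 17.7% lower and 17.3% higher). In BON-1, 4 of the 7 genes tested rose (SOX2, KLF4, SOX9 and ALDH1A3), 2 fell (PROM1 and ALDH1A1) and CD44 was not called, with 35.3% of all 14625 genes tested called, 18.3% lower and 17.0% higher. Of the 7 genes with a test in each line, the 3 called in QGP-1 were also called in BON-1, in the same direction. Over all 13535 genes with a test in each line, 1909 (14.1%) were called in the same direction and 364 (2.69%) in opposite directions. Most genes called in both lines thus shared a direction, and these 3 do not stand out by it. The median log2 fold change of the tested genes was 0.04 in QGP-1 and 0.31 in BON-1, beside -0.01 over all genes in each line. The vehicle and DOX libraries of every called gene did not overlap. The call and the overlap rest on the same libraries, so this is no separate support. Over all genes tested, called or not, 46.8% in QGP-1 and 45.9% in BON-1 did not overlap.

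**Figure D3:**
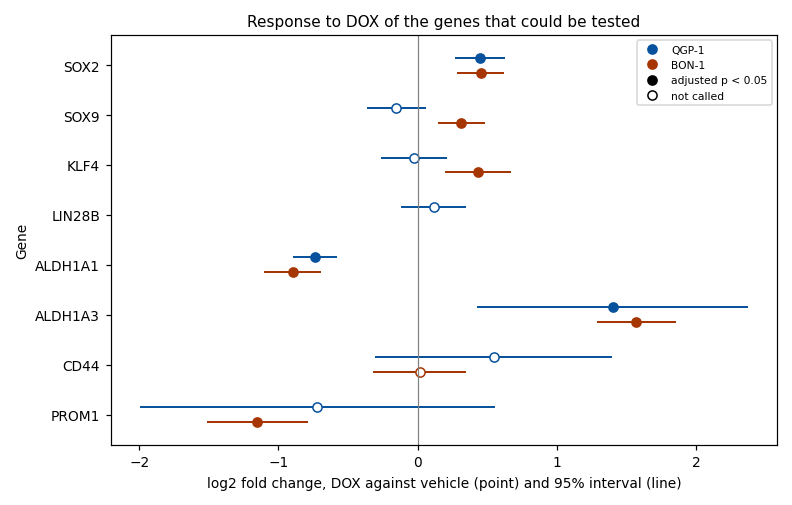
Log2 fold change of DOX against vehicle (x axis) for the 8 genes tested in QGP-1 (blue) and the 7 tested in BON-1 (brown); lines are 95% intervals and filled points passed an adjusted p of 0.05. SOX2 and ALDH1A3 lie to the right of 0 and ALDH1A1 to the left in both lines. KLF4 and SOX9 lie right of 0 in BON-1 only. On log2(TPM + 1) ALDH1A1 in QGP-1 is at 0.00, KLF4 and SOX9 in QGP-1 are above 0, and SOX9 in BON-1 is at -0.05. With TPM rescaled without RN7SK, RN7SL1 and RN7SL2, ALDH1A1 in QGP-1 is at -0.411 and SOX9 in BON-1 at 0.267.

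ALDH1A1 and ALDH1A3, enzymes with the same substrate, moved in opposite directions in both lines. ALDH1A1 (GRCh38 chr9:72900671-73080442, minus strand) was at 188.7, 168.9 and 194.9 CPM in QGP-1 vehicle and at 110.7, 110.1 and 109.7 CPM with DOX. Every DOX library lay below every vehicle library, and the level fell by 0.74 on the log2 scale (SE 0.07, edgeR adjusted p = 4.68e-06), or 1.67-fold. In BON-1, ALDH1A1 was at 100.4, 74.8 and 79.5 CPM with vehicle and at 47.7, 46.6 and 43.3 CPM with DOX, again without overlap, and fell by 0.90 (SE 0.10, edgeR adjusted p = 3.66e-08). The responses of the lines differed by -0.15 for BON-1 minus QGP-1 (95% interval -0.42 to 0.12, edgeR adjusted p = 0.478).

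ALDH1A3 (chr15:100877714-100916626, plus strand) rose in both lines from levels that were far apart. In BON-1 it was at 10.4, 10.8 and 8.38 CPM with vehicle and at 24.8, 29.7 and 34.2 CPM with DOX, a log2 fold change of 1.57 (SE 0.14, edgeR adjusted p = 4.44e-10). In QGP-1 it had only 16, 25 and 11 counts with vehicle and 45, 41 and 53 with DOX. These are 0.430, 0.593 and 0.227 CPM against 0.956, 1.07 and 1.26 CPM, so that the groups did not overlap, with a log2 fold change of 1.40 (SE 0.45, edgeR adjusted p = 0.0264). The QGP-1 call was lost when vehicle replicate 1, vehicle replicate 3, DOX replicate 2 or DOX replicate 3 was left out, with values between 1.09 and 1.75 over the 6 such fits. The responses of the lines differed by 0.17 (95% interval -0.57 to 0.92, edgeR adjusted p = 0.81). Even with DOX, QGP-1 held 1.10 ± 0.16 CPM (SD, n = 3) of ALDH1A3 and 110.2 ± 0.49 CPM of ALDH1A1.

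The start regions of both genes differ in base composition, and the 250 bases before each start are shown because the genes moved oppositely (RefSeq starts, GRCh38.p14, 5′ to 3′ on the strand of the gene). ALDH1A1 (chr9:72953054-72953303, minus strand) has 38.4% G and C and 6 CpG, and ALDH1A3 (chr15:100879581-100879830, plus strand) has 82.4% and 38 CpG. Capitals mark the CCAAT box (CCAAT), the GC box (GGGCGG), the TATA box (TATAAA) and the E-box (CACGTG), searched on both strands.
ALDH1A1: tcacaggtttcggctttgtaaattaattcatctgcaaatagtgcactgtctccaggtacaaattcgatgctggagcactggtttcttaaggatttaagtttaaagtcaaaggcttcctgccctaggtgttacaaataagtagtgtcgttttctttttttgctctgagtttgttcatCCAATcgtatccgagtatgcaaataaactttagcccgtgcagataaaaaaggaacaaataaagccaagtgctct
ALDH1A3: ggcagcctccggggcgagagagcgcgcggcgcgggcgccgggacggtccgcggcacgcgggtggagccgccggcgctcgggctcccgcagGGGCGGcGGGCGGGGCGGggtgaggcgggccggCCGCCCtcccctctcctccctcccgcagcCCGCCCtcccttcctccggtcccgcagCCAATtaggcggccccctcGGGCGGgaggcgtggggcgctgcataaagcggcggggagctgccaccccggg
Each has 1 CCAAT box, which 32% of 35116 RefSeq promoter windows of 250 bases hold. ALDH1A3 has 6 GC boxes, of which the pair at 153 and 148 bases before the start overlap, and ALDH1A1 has none, beside 42.6% of all windows with at least 1. The E-box (6.34% of windows) and the TATA box (10.7%) were found in neither of these windows. Of the other genes with a RefSeq window for 1 start, KLF4 has 1 E-box and SOX2, CD44 and NANOG have none. A match of letters is a description and says nothing about binding.

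SOX2 rose by a like amount in both lines. It was at 93.7, 79.4 and 86.7 CPM in QGP-1 vehicle and at 110.2, 127.2 and 116.9 CPM with DOX, a log2 fold change of 0.45 (SE 0.08, edgeR adjusted p = 0.000765). In BON-1 it was at 119.4, 106.9 and 102.4 CPM with vehicle and at 140.3, 160.2 and 152 CPM with DOX, also 0.45 (SE 0.08, edgeR adjusted p = 4.89e-05). The groups did not overlap in either line, and the responses differed by 0.01 (95% interval -0.23 to 0.26, edgeR adjusted p = 0.983). SOX2 (GRCh38 chr3:181711925-181714436) lies inside the long non-coding gene SOX2-OT on the same strand, and whether reads of SOX2-OT entered its count is not given in the sources used here.

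KLF4 and SOX9 rose in BON-1 and were not called in QGP-1. KLF4 (chr9:107484852-107490482, minus strand), a zinc finger factor of epithelial differentiation as well as of reprogramming, was at 20.7, 21.1 and 23.2 CPM in BON-1 vehicle and at 30.0, 31.3 and 26.9 CPM with DOX (log2 0.43, SE 0.11, edgeR adjusted p = 0.00304). In QGP-1 it was at 16.2, 15.5 and 13.6 CPM with vehicle and at 15.3, 14.4 and 14.7 CPM with DOX, and the groups overlapped (log2 -0.03, 95% interval -0.26 to 0.20, edgeR adjusted p = 0.881). The test of the difference, BON-1 minus QGP-1, gave 0.47 (SE 0.16, edgeR adjusted p = 0.0401). This call was made in 3 of 12 fits that left out 1 library, with values between 0.38 and 0.54; it was lost without each library except BON-1 vehicle replicate 3, BON-1 DOX replicate 3 and QGP-1 vehicle replicate 3, and also with library size in place of TMM, without a filter on low counts and with the replicate block (adjusted p = 0.0525, edgeR).

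SOX9 (chr17:72121020-72126416, plus strand) was at 126.8, 116.9 and 111.5 CPM in BON-1 vehicle and at 145.8, 159.9 and 138.1 CPM with DOX, without overlap (log2 0.31, SE 0.08, edgeR adjusted p = 0.0028). In QGP-1 it was at 71.9, 82.5 and 65.4 CPM with vehicle and at 64.5, 72.4 and 60.7 CPM with DOX, which overlapped (log2 -0.15, 95% interval -0.36 to 0.05, edgeR adjusted p = 0.238). The responses differed by 0.47 (SE 0.13, edgeR adjusted p = 0.0125), a call that was lost without BON-1 DOX replicate 2 or without QGP-1 vehicle replicate 2, with values from 0.37 to 0.55 over the 12 fits. The DOX response was called more positive in BON-1 for 8.80% of all 16598 genes and more negative for 7.92%, or 16.7% in all. SOX9 and KLF4 overlap genes on the other strand, as do ALDH1A1, ALDH1A3, CD44, LIN28B and POU5F1. PROM1, ALDH1A3, CD44, LIN28B and POU5F1, like SOX2, overlap a gene on the same strand. Whether the counting used strand, and whether reads of overlapping genes were counted, is not given in the sources used here.

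Of the surface markers, PROM1 fell in BON-1 and CD44 was not called in either line. PROM1 (chr4:15963076-16084378, minus strand) was at 12.2, 10.4 and 13.1 CPM in BON-1 vehicle and at 5.33, 5.80 and 4.99 CPM with DOX, without overlap (log2 -1.15, SE 0.17, edgeR adjusted p = 6.56e-06). In QGP-1 it had 9, 9 and 18 counts with DOX beside the 12, 12 and 38 with vehicle, and the value of -0.72 had a 95% interval from -1.99 to 0.55 (edgeR adjusted p = 0.375). The lines differed by -0.40 in response (95% interval -1.40 to 0.60, edgeR adjusted p = 0.634), so that a difference was not detectable at this depth.

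CD44 (chr11:35138882-35232402, plus strand) in BON-1 was at 11.8, 9.10 and 9.40 CPM with vehicle and at 9.35, 10.7 and 10.8 CPM with DOX, and the groups overlapped. Its log2 fold change was 0.01 (95% interval -0.31 to 0.34, edgeR adjusted p = 0.954), with a sign that turned under several alternatives. In QGP-1 it had 24, 41 and 28 counts with vehicle and 61, 41 and 35 with DOX (log2 0.54, 95% interval -0.30 to 1.39, edgeR adjusted p = 0.312). The lines differed by -0.52 in response (95% interval -1.20 to 0.15, edgeR adjusted p = 0.298). Counts are per gene, so the standard and variant splice forms of CD44 could not be told apart.

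LIN28B (chr6:104936616-105083332, plus strand) had the widest gap between the lines of the 8 genes. QGP-1 libraries held 518, 522 and 615 counts with vehicle (13.9, 12.4 and 12.7 CPM) and 646, 563 and 580 with DOX (13.7, 14.6 and 13.8 CPM). The groups overlapped, with a log2 fold change of 0.11 (95% interval -0.11 to 0.34, edgeR adjusted p = 0.439). On log2(TPM + 1) LIN28B was called higher with DOX in QGP-1 (0.455, limma adjusted p = 0.000611), where the median of all genes moved by 0.595. BON-1 libraries held 0, 4 and 0 counts with vehicle and 0 in all 3 DOX libraries. Pooled, 1655 against 4 vehicle counts made LIN28B 228.6-fold higher in QGP-1 per effective library size (95% exact interval 89.1 to 840, counting error only), and the 4 counts came from BON-1 vehicle replicate 2. Without that library QGP-1 was at least 81.2-fold higher, setting its mean against 3 counts in the BON-1 library where they weigh most. With DOX, where BON-1 had no counts, the same floor (0.186 CPM) made it at least 75.7-fold higher. The difference in the DOX response between the lines is not given for LIN28B, since nothing was left to change in BON-1.

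The let-7 microRNAs share a seed, and LIN28B and classical let-7 targets carry its complement. All 9 mature let-7 family members in the RefSeq microRNA table (miR-98 included) have the seed GAGGUAG at bases 2 to 8, shown in capitals in let-7a and let-7g. The site that pairs with it, CTACCTC, occurs in the 3′ untranslated region of 1909 of 19936 canonical GENCODE transcripts (9.58%). LIN28B has 4 sites and so has HMGA2, a chromatin protein and let-7 target, while the other 9 genes described here have none; the sites are shown, in capitals within 29 bases of GRCh38, since both genes differ between the lines. MicroRNAs were not measured in these libraries.
let-7a: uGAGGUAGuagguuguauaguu
let-7g: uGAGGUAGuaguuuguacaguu
LIN28B, chr6:105078812-105078840: acccggttgcaaagtCTACCTCatgcaag
LIN28B, chr6:105081239-105081267: tactgatgatagtaaCTACCTCtgagttt
LIN28B, chr6:105081421-105081449: gtttacagcaaaaggCTACCTCatagttg
LIN28B, chr6:105082860-105082888: aaatgatggtgttgaCTACCTCttgaatc
HMGA2, chr12:65963298-65963326: gccaacgttcgatttCTACCTCagcagca
HMGA2, chr12:65964533-65964561: ccccactactcaataCTACCTCtgaatgt
HMGA2, chr12:65964945-65964973: ttgacttgcaaagacCTACCTCcagactt
HMGA2, chr12:65965798-65965826: aatcaaaacacactaCTACCTCttaagtc

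HMGA2 and IGF2BP1, an oncofetal RNA-binding protein whose transcript also has 4 sites, were named after their values were seen, as were the genes compared with them here. Both were higher in BON-1, where LIN28B was at or near 0. The axis as a whole had no common direction between the vehicle groups: 8 of its 18 tested genes were higher in BON-1, 6 were lower and 4 were not called. Thus 77.8% of them were called, beside 74.9% of all genes. Of other transcripts with sites, IGF2BP2, ARID3B and NRAS (1 site each) were higher in BON-1. Their log2 values were 1.15 (edgeR adjusted p = 5.09e-12), 0.58 (edgeR adjusted p = 2.48e-05) and 0.29 (edgeR adjusted p = 0.000901). IGF1R (2 sites) was lower (log2 -0.62, edgeR adjusted p = 2.21e-07). TRIM71 (6 sites; log2 -1.66, edgeR adjusted p = 0.0542), IGF2BP3 (1 site; 0.09, edgeR adjusted p = 0.267) and CDC25A (2 sites; -0.10, edgeR adjusted p = 0.411) were not called; TRIM71 was called without BON-1 DOX replicate 3 (-1.68) and IGF2BP3 with library size in place of TMM (0.20), where the sign of CDC25A turned. IGF2BP1 was at 1.61 ± 0.31 CPM in QGP-1 vehicle and at 506.7 ± 38 CPM in BON-1 vehicle (SD, n = 3; log2 8.31, 317-fold, edgeR adjusted p = 5.04e-25). HMGA2 was at 133.5 ± 3.0 CPM in QGP-1 vehicle and at 773.5 ± 69 CPM in BON-1 vehicle (log2 2.53, edgeR adjusted p = 9.24e-19).

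**Figure D4:**
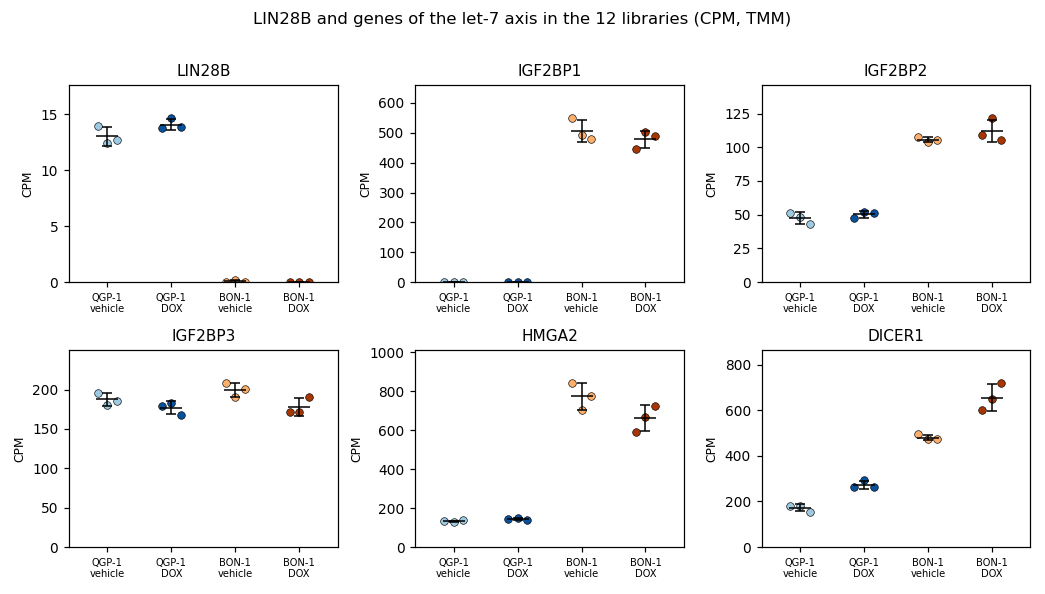
Level in CPM (y axis, each panel with its own scale) of LIN28B and 5 genes of the LIN28 and let-7 axis in the 12 libraries, 3 per group (x axis); points are libraries, and the line and bars are the mean and SD. LIN28B is present in QGP-1 (12.4 to 14.6 CPM) and at or near 0 in BON-1, whereas IGF2BP1 and HMGA2 are higher in BON-1, and DICER1 is higher with DOX in both lines.

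With DOX, 6 of the 18 tested genes of the LIN28 and let-7 axis rose and 12 were not called in QGP-1 (median log2 0.12), and 3 of 17 rose and 2 fell in BON-1 (median 0.01). The shares called, 33.3% in QGP-1 and 29.4% in BON-1, were not above the 35.0% and 35.3% of all genes. DICER1, which cuts microRNA precursors, rose from 172.1 ± 16 to 273 ± 18 CPM in QGP-1 (SD, n = 3; log2 0.67, edgeR adjusted p = 2.98e-05) and from 480.3 ± 11 to 655.2 ± 60 CPM in BON-1 (log2 0.44, edgeR adjusted p = 7.31e-05). ARID3B, a let-7 target, rose in QGP-1 (log2 0.66, edgeR adjusted p = 0.000517), and XPO5, which carries microRNA precursors out of the nucleus, fell by 0.29 in BON-1 (edgeR adjusted p = 0.009).

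The wider aldehyde dehydrogenase family, without ALDH1A1 and ALDH1A3, had 3 genes that rose and 5 that fell among 14 tested in QGP-1 (median -0.17), and 1 that rose and 4 that fell among 12 in BON-1 (median 0.05). Called genes made up 57.1% and 41.7%, beside 35.0% and 35.3% of all genes. ALDH1A2, the other main retinaldehyde dehydrogenase, went in opposite directions in the lines. It rose from 1.80, 1.52 and 2.52 CPM to 9.41, 8.30 and 9.05 CPM in QGP-1, a log2 fold change of 2.19 (SE 0.19, edgeR adjusted p = 2.26e-06). It fell from 20.9, 20.3 and 21.6 CPM to 12.6, 14.8 and 13.6 CPM in BON-1, by 0.63 (SE 0.13, edgeR adjusted p = 0.000268). The groups overlapped in neither line, and after DOX the level in QGP-1 was still below that in BON-1. ALDH2, the mitochondrial enzyme that clears acetaldehyde, fell by 1.95 in QGP-1 (edgeR adjusted p = 0.000483) and by 0.49 in BON-1 (edgeR adjusted p = 0.00314; not called without BON-1 vehicle replicate 1, with values from -0.58 to -0.32 over the 6 fits), and ALDH16A1 fell by 0.60 in BON-1 (edgeR adjusted p = 0.0049).

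Genes of retinoic acid signaling fell more often than they rose. In QGP-1, 8 of 16 tested fell and 1 rose (median log2 -0.32), and in BON-1, 7 of 18 fell and 3 rose (median -0.18), beside 17.7% and 18.3% of all genes that fell. CYP26B1, which degrades retinoic acid, fell from 4.75 ± 0.92 to 2.22 ± 0.024 CPM in QGP-1 (SD, n = 3; log2 -1.09, edgeR adjusted p = 0.000904) and from 20.9 ± 1.7 to 6.46 ± 0.88 CPM in BON-1 (log2 -1.70, edgeR adjusted p = 6.03e-10). The retinoid receptor RXRG fell by 1.46 in BON-1 (edgeR adjusted p = 0.00119), and FABP5, a fatty acid and retinoic acid carrier, rose by 0.76 in QGP-1 (edgeR adjusted p = 6.29e-05). The receptors RARA and RXRA, named after their values were seen, fell in both lines: RXRA by 0.57 (edgeR adjusted p = 0.00981) in QGP-1 and 0.62 (edgeR adjusted p = 0.00189) in BON-1, and RARA by 0.35 (edgeR adjusted p = 0.0411) and 0.97 (edgeR adjusted p = 0.000642). The RARA call in QGP-1 was lost without any of 5 of the 6 libraries, vehicle replicate 3 being the exception (-0.48 to -0.28). It was also lost with library size in place of TMM and with all 12 libraries in 1 fit. On log2(TPM + 1) the sign of RARA in QGP-1 turned.

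**Figure D5:**
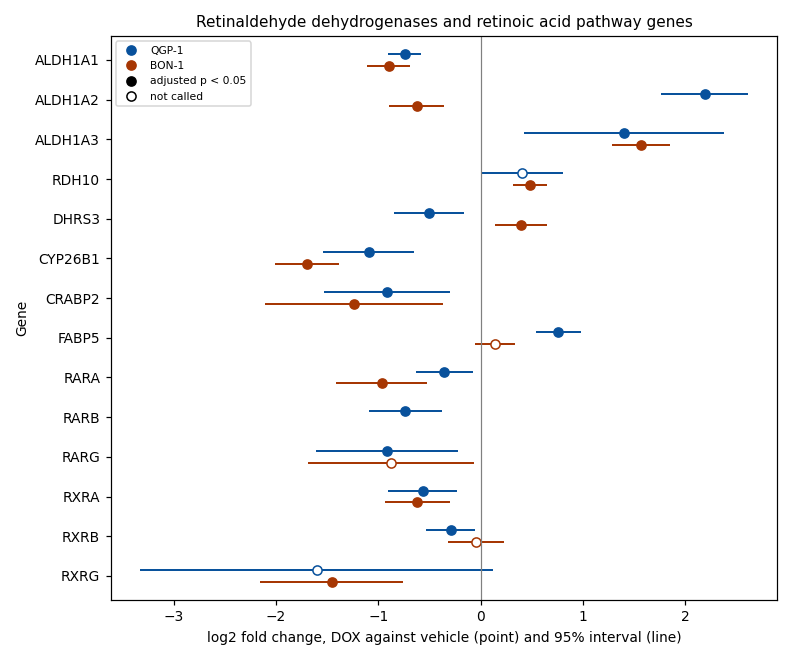
Log2 fold change of DOX against vehicle (x axis) with 95% intervals for the 3 retinaldehyde dehydrogenases and 11 other retinoic acid pathway genes, in QGP-1 (blue) and BON-1 (brown); filled points passed an adjusted p of 0.05. ALDH1A2 lies at 2.19 in QGP-1 and at -0.63 in BON-1, and ALDH1A1, CYP26B1, RARA and RXRA lie left of 0 in both lines. On log2(TPM + 1), ALDH1A1 and RARA in QGP-1 do not lie left of 0. With TPM rescaled without RN7SK, RN7SL1 and RN7SL2, they are at -0.411 and -0.02.

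The other genes of the pluripotency network had no common direction. In QGP-1, 4 of 14 tested rose and 2 fell (median log2 0.03), and in BON-1, 2 of 15 rose and 6 fell (median -0.21). Thus 42.9% and 53.3% were called, beside 35.0% and 35.3% of all genes. MYCN, the MYC family member of neural and neuroendocrine tumors, fell from 5.25 ± 0.93 to 0.810 ± 0.36 CPM in BON-1 (SD, n = 3; log2 -2.72, SE 0.33, edgeR adjusted p = 2.21e-07). TFCP2L1, a factor of naive pluripotency, fell by 0.49 in QGP-1 (edgeR adjusted p = 0.00294), with a sign that turned on log2(TPM + 1). NR0B1 (DAX1) rose by 0.53 in QGP-1 (edgeR adjusted p = 0.0134), a call lost with all 12 libraries in 1 fit. In BON-1, where NR0B1 had 43, 24 and 13 counts with vehicle and 5, 14 and 0 with DOX, it fell by 1.67 (edgeR adjusted p = 0.0422), a call lost without vehicle replicate 1 or 2 or DOX replicate 1 or 3 (-2.90 to -1.07) and with DESeq2 or library size in place of TMM. TERT, the catalytic subunit of telomerase, fell by 0.80 in BON-1 (edgeR adjusted p = 0.0462), a call that was kept in 1 of the 6 fits that left out a library, the one without DOX replicate 2 (-0.99 to -0.71), and was lost with DESeq2, with the replicate block and with all 12 libraries in 1 fit.

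Among other markers of tumor-initiating cells, 7 of 23 tested rose and 6 fell in QGP-1 (median log2 -0.10), and 4 of 21 rose and 7 fell in BON-1 (median -0.07). The shares called were 56.5% and 52.4%, beside 35.0% and 35.3% of all genes. The tetraspanin CD9 fell from 17.5 ± 1.7 to 4.66 ± 0.67 CPM in QGP-1 (SD, n = 3; log2 -1.90, edgeR adjusted p = 4.38e-07). PROM2, the paralog of PROM1, fell there from 28.8 ± 3.9 to 10.6 ± 1.8 CPM (log2 -1.45, edgeR adjusted p = 4.85e-06). The aminopeptidase ANPEP (CD13) fell by 1.39 in BON-1 (edgeR adjusted p = 1.1e-07) and was below the filter in QGP-1. The chemokine receptor CXCR4 fell in both lines, by 1.33 in BON-1 (edgeR adjusted p = 0.000795) and by 1.37 in QGP-1 (edgeR adjusted p = 0.000397). The genes named had the largest changes and do not stand for the list. Its largest rise was 1.25 in QGP-1 and 0.73 in BON-1.

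Of the ligands, partners and splicing factors of CD44, 4 of 16 rose and 5 fell in QGP-1 (median log2 0.10), and 8 of 19 rose and 4 fell in BON-1 (median 0.16). Called genes made up 56.2% and 63.2%, beside 35.0% and 35.3% of all genes. CEMIP, which breaks down hyaluronan, rose from 13.8 ± 0.91 to 46.4 ± 2.1 CPM in QGP-1 (SD, n = 3; log2 1.76, edgeR adjusted p = 3.83e-08) and from 244.1 ± 23 to 641.2 ± 17 CPM in BON-1 (log2 1.38, edgeR adjusted p = 1.23e-13). VCAN, a proteoglycan that binds hyaluronan, rose by 1.17 in BON-1 (edgeR adjusted p = 2.66e-11), and HMMR, a hyaluronan receptor that also rises in mitosis, fell by 0.82 in QGP-1 (edgeR adjusted p = 1.84e-06) and by 0.57 in BON-1 (edgeR adjusted p = 3.55e-06).

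In the SOX family beside SOX2 and SOX9, 2 of 8 tested rose and 1 fell in QGP-1 (median log2 0.03), and 4 of 7 rose and 1 fell in BON-1 (median 0.25). Thus 37.5% and 71.4% were called, beside 35.0% and 35.3% of all genes. SOX4, a factor of progenitor cells, rose by 0.84 in QGP-1 (edgeR adjusted p = 1.22e-06) and by 0.87 in BON-1 (edgeR adjusted p = 9.93e-09), and SOX12 fell by 0.99 in BON-1 (edgeR adjusted p = 3.04e-06). In the KLF family beside KLF4, 5 of 13 rose and 1 fell in QGP-1 (median log2 0.02), and 4 of 11 rose and 2 fell in BON-1 (median 0.07). The shares called there were 46.2% and 54.5%, beside the same shares of all genes. KLF12 rose by 0.40 in QGP-1 (edgeR adjusted p = 0.0019) and by 0.60 in BON-1 (edgeR adjusted p = 1.16e-06), KLF13 by 0.38 in QGP-1 (edgeR adjusted p = 0.00572) and KLF11 by 0.73 in BON-1 (edgeR adjusted p = 0.0299). The KLF11 call was lost without BON-1 vehicle replicate 2 or 3 or DOX replicate 2 or 3 (0.59 to 0.83 over the 6 fits).

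For the 3 genes called in both lines, the genes with the most similar pattern were found by Pearson correlation of log2 CPM over the 12 libraries after removing the mean of each line. Among 9013 genes compared, PPFIA1 (r = 0.984), VTI1A (r = 0.975) and BICD2 (r = 0.974) were most like SOX2, and MESD (r = 0.981), GMPS (r = 0.981) and LDHA (r = 0.980) most like ALDH1A1. Among 9014 genes compared, ERCC6 (r = 0.966), TSHZ2 (r = 0.965) and LMTK2 (r = 0.963) were most like ALDH1A3. In QGP-1 these values rest on few counts of ALDH1A3, 11 to 25 a library with vehicle and 41 to 53 with DOX. The points share libraries, depth and the DOX contrast, so that genes with a like response to DOX come out high, and the values are a description.

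The scale of the deposited TPM values bears on each direction given. The small RNAs RN7SK, RN7SL1 and RN7SL2 held 3.30% to 6.38% of counts but 71.2% to 80.3% of TPM in QGP-1, and 1.35% to 3.77% of counts and 50.9% to 74.3% of TPM in BON-1. On log2(TPM + 1) the median of all genes moved by 0.59 in QGP-1 and by -0.31 in BON-1, and the split of calls by limma was 91 lower and 9166 higher in QGP-1, and 229 lower and 29 higher in BON-1. With that median subtracted, ALDH1A1 was at -0.59 in QGP-1 and -0.88 in BON-1, and SOX2 at 0.54 and 0.40. In BON-1, ALDH1A3 was then at 1.28, PROM1 at -0.60, KLF4 at 0.37 and SOX9 at 0.26, and in QGP-1 KLF4 was at -0.09 and SOX9 at -0.07.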

How the data were processed

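The authors prepared TruSeq Stranded mRNA libraries and aligned reads with STAR to GRCh38; versions, the counter, its strand setting and its handling of reads with several matches are not given in the sources used here. The authors deposited raw, not normalized counts and, made from these with gene lengths, TPM values, in 1 table each per line. Columns were matched to libraries by their names; 0 columns were left unused. Here, the counts of each line went into edgeR 4.0.16 under R 4.3.3 (default filter, TMM, quasi-likelihood fit, Benjamini-Hochberg over all genes tested, called at adjusted p below 0.05); the interaction of line and DOX and the vehicle comparison came from 1 fit of the 12 libraries. Exon lengths and positions are from GENCODE annotation of GRCh38, sequences from RefSeq (GRCh38.p14) and the GRCh38 genome. RefSeq held promoters for 8 of the 10 genes.

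The genes and the 8 lists beside them were chosen with earlier results of these data known. Of each list and line, the 2 called genes with the largest absolute log2 fold change at a mean log2 CPM of at least 1 are named; others are said to be named after their values were seen. All pairs of replicates differed beyond sampling noise (chi-square per gene 5.92 to 29.7). The code was tested on simulated counts. Alternatives were DESeq2 1.42.0, library size in place of TMM, no RN7 genes, 2 other filters, all libraries in 1 fit, a replicate block, limma 3.58.1 on log2(TPM + 1) or log2(TPM + 0.1) (genes of mean TPM 1 or more), each library left out in turn and, chosen after seeing the data, TPM rescaled without the RN7 genes. With 3 against 3 libraries an exact two-sided permutation test of 1 gene cannot go below 0.1, so none was run.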

Additional observations from a re-analysis of the deposited data

Results flagged for a closer look

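The results below were singled out because the response to DOX differed between the lines in the test of the difference itself (BON-1 minus QGP-1, log2, edgeR interaction, adjusted over 16598 genes, of which 16.7% were called). Among the 10 genes, SOX9 (0.47, adjusted p = 0.0125) and KLF4 (0.47, adjusted p = 0.0401) responded more positively in BON-1. Among list genes, the difference was positive for CD9 (1.85, adjusted p = 4.3e-08), ALDH2 (1.47, adjusted p = 0.00216), KLF11 (0.92, adjusted p = 0.00205) and TFCP2L1 (0.52, adjusted p = 0.0243). The value for PROM2 (3.50, adjusted p = 0.000743) is not read as a difference, since PROM2 was below the filter in BON-1 (0.137 ± 0.093 CPM with vehicle, SD, n = 3). The difference was negative for ALDH1A2 (-2.80, adjusted p = 3.41e-09), MYCN (-2.43, adjusted p = 9.18e-06), NR0B1 (-2.22, adjusted p = 0.0084), SOX12 (-0.82, adjusted p = 0.000219), ARID3B (-0.65, adjusted p = 0.00344), FABP5 (-0.61, adjusted p = 0.00322), KLF13 (-0.48, adjusted p = 0.016), XPO5 (-0.38, adjusted p = 0.0291), CEMIP (-0.36, adjusted p = 0.0288) and HMGA2 (-0.35, adjusted p = 0.0357).

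Some of these calls were lost without 1 library. TFCP2L1 kept its call in 5 of 12 such fits (0.41 to 0.61), HMGA2 in 7 (-0.44 to -0.31), XPO5 in 8 (-0.48 to -0.32), CEMIP in 8 (-0.44 to -0.31) and NR0B1 in 11 (-3.52 to -1.61, lost without BON-1 vehicle replicate 1). For TFCP2L1 the libraries were BON-1 vehicle replicates 1 and 3, BON-1 DOX replicate 3, QGP-1 vehicle replicates 1 and 2 and QGP-1 DOX replicates 1 and 3. For HMGA2 they were BON-1 vehicle replicate 1, BON-1 DOX replicate 1, QGP-1 vehicle replicates 1 and 2 and QGP-1 DOX replicate 2. For XPO5 they were BON-1 vehicle replicate 1, BON-1 DOX replicate 1, QGP-1 vehicle replicate 3 and QGP-1 DOX replicate 2, and for CEMIP they were BON-1 vehicle replicate 1, QGP-1 vehicle replicates 2 and 3 and QGP-1 DOX replicate 2. TFCP2L1 was also not called with library size in place of TMM, and HMGA2 not with the replicate block. With 3 libraries in a group, no test for an outlying library was applied.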

How the results depend on the processing

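Under the alternatives on counts, the calls of the 10 genes within a line were those of the edgeR fit, with the exception of ALDH1A3 in QGP-1 when 1 library was left out. Leaving out 1 library gave 1996 to 2614 genes lower and 1975 to 2644 higher in QGP-1 (of the 10 genes, 1 to 1 lower and 1 to 2 higher), 2194 to 2577 and 1908 to 2196 in BON-1 (2 lower and 4 higher), 971 to 1700 and 1076 to 1359 for the difference in response (0 lower and 0 to 2 higher), and 5967 to 6395 and 5879 to 6524 for vehicle (2 lower and 6 higher). Of the 10 genes, 1 in place of 2 differed in response under library size, without a filter and under the replicate block, where KLF4 had an adjusted p of 0.0525 (edgeR). The block was not used in the comparisons because same-numbered libraries did not deviate together (correlations -0.073, 0.121 and 0.084 in QGP-1 and -0.062, -0.036 and 0.09 in BON-1); with it 2738 genes were lower and 2749 higher in QGP-1. With at least 10 counts in every library, 1 gene was lower in BON-1 vehicle, since LIN28B was no longer tested.

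On log2(TPM + 1) and log2(TPM + 0.1), limma called 91 and 90 genes lower and 9166 and 9158 higher in QGP-1, and 229 and 240 lower and 29 and 31 higher in BON-1; of the 10 genes 0 fell and 4 rose in QGP-1, and 0 fell and 0 rose in BON-1. The median of all genes moved by 0.59 and 0.73 in QGP-1 and by -0.31 and -0.37 in BON-1. Rescaled without the RN7 genes, 668 were lower and 6520 higher in QGP-1 and 1410 higher in BON-1. On that scale the median of all genes still moved by 0.286 in QGP-1, and by -0.05 in BON-1. Signs turned on the TPM scales, in the same order, for KLF4 (0.50, 0.69 and 0.27), SOX9 (0.53, 0.58 and 0.17), ALDH1A1 (0.001 and 0.001), TFCP2L1 (0.16 and 0.23) and RARA (0.22 and 0.37) in QGP-1, and for SOX9 (-0.052 and -0.055) and CD44 (-0.17, -0.31 and -0.013) in BON-1. CD44 in BON-1 also turned with library size (-0.028), without a filter (-0.004) and in 4 of 6 fits without 1 library (-0.063, -0.034, -0.021 and -0.029, with the highest at 0.136), and KLF4 in QGP-1 without vehicle replicate 1 (0.027, the lowest of the 6 being -0.098). The difference in response turned for SOX2 with library size (-0.057), without a filter (-0.017) and without 1 library (-0.027, -0.05, -0.076, -0.004, -0.049 and -0.09, the highest being 0.071), for PROM1 without QGP-1 DOX replicate 3 (0.018, the lowest being -1.048) and for ALDH1A3 without QGP-1 vehicle replicate 2 (-0.19, the highest being 0.502), and the vehicle difference turned for CDC25A with library size (0.006). Of these turned values, KLF4 in QGP-1 on all 3 TPM scales and SOX9 in QGP-1 on log2(TPM + 1) and log2(TPM + 0.1) passed the threshold. LIN28B in QGP-1, not called on counts, was called higher on all 3 TPM scales (0.455, 0.784 and 0.364). ALDH1A1 in QGP-1 fell on the scale rescaled without the RN7 genes (-0.411, limma adjusted p = 0.00123). Among named list genes, 44 calls were lost over fits without 1 library and 49 over the other alternatives, while 459 and 444 values kept direction and side of the threshold. The vehicle differences of ARID3B and NRAS are not among these values. The cause was not tested. Depth limits ALDH1A3, CD44 and PROM1 in QGP-1, at 9 to 61 counts a library.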
